A study of Mus musculus with 4 samples.

Results

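The serum amyloid genes Saa1, Saa2, Saa3 and Saa4 and the acute phase genes Hp, Hpx, Lcn2, Lrg1, Lbp and Apcs were followed in regenerating mouse liver after an injection of siRNA against orosomucoid. These 10 genes were chosen by symbol as plasma proteins of the acute phase response, and all 10 were measured, by 12 of the 18852 probe sets of the deposited table. They are 10 of the 10923 genes that the table measured with probe sets of 1 gene symbol. RNA of whole liver came from 2 siOrm arrays and 2 siControl arrays, from mice that were male, C57BL6/J and 6 to 13 weeks old. In siOrm the mice had received 1 injection of an siRNA that the series describes as directed against Orm1, and in siControl a control siRNA, in both cases carried by a lipid reagent. In both groups 40% of the liver was removed 3 days after the injection, and livers were taken 48 hours after that operation. The study sought genes that depend on Orm1 in the regenerating liver.

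The 2 siOrm titles could also stand for an siRNA against Orm1 and one against Orm2; all other labels are the same for both arrays, which were taken as replicates here. Whether each array holds RNA of a single animal or of several is not stated; p-values here therefore cover array-to-array spread, and that spread may be technical. No label describes an uninjected or unoperated liver, so the size of the acute phase response to the operation itself is not seen here. One protocol text speaks of cultured cells, although the tissue is given as liver. Each probe set is centred on the median of the 4 arrays, so a value of 0 is the middle of the 4 arrays and says nothing of the level of a gene. Levels of different genes, and the presence of liver markers, can therefore not be read from the table. In genes with 1 probe set the 2 middle arrays stand at mirrored values, because their midpoint is the median. Values are log2 units, with base 2 assumed; if the logarithms were natural, each difference should be multiplied by 1.44.

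The acute phase response is the change in plasma proteins that the liver makes after injury or infection. Interleukin 6 and related cytokines act through the shared receptor gp130 and STAT3, and interleukin 1 acts through NF-kappaB and C/EBP factors, on hepatocyte genes for serum amyloid A, haptoglobin, hemopexin and others. After partial hepatectomy interleukin 6 is released, largely by Kupffer cells, early in regeneration. In mice, Saa1 and Saa2 encode the main inducible serum amyloid A proteins of hepatocytes, which travel on high density lipoprotein, Saa3 is also made by macrophages and fat cells, and Saa4 is made constitutively.

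The 4 Saa genes lie side by side on chromosome 7, at chr7:46711998-46754313 of GRCm38.p6, a span of 42.3 kb. Saa1 and Saa2 are transcribed away from each other, and the stretches just before the starts used here are near copies. These starts are those of the promoter set, and for Saa1 and Saa3 they lie inside the gene's annotated span. On the minus strand those spans begin at chr7:46743181 for Saa1 and chr7:46719615 for Saa3. The Saa1 stretch is therefore partly, and the Saa3 stretch wholly, within the annotated gene. The 250 bases before the start of Saa1 and of Saa2 were identical at 238 of 251 aligned positions, or 94.8%. Against Saa3 the same stretch of Saa1 was 48.2% identical, and against Lcn2 it was 51.3% identical. Unrelated stretches aligned in the same way also come out near this level, as between Hpx and Lcn2 at 43.8%. The sequences are shown for Saa1 and Saa2, to make the near copies visible, and for Saa3 and Lcn2, which had the lowest differences of the members. They are from RefSeq on GRCm38.p6, written 5′ to 3′ on the strand of the gene. Saa1 is on the minus strand at chr7:46742981-46743230, Saa2 on the plus strand at chr7:46751583-46751832, Saa3 on the minus strand at chr7:46715677-46715926 and Lcn2 on the minus strand at chr2:32387740-32387989. Capitals mark matches, on either strand, to a C/EBP motif written TTNCNNAA, a STAT motif written TTCNNNGAA or the kappaB consensus.
Saa1: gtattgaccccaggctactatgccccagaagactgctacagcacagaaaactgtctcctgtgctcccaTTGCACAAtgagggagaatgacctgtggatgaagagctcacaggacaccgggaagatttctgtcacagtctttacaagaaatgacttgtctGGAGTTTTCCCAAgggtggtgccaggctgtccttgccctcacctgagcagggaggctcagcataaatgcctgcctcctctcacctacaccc
Saa2: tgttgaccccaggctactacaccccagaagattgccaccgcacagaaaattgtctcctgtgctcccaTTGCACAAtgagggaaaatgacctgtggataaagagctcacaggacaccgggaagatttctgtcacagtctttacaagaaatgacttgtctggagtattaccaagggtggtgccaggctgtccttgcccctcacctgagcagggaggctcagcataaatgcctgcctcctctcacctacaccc
Saa3: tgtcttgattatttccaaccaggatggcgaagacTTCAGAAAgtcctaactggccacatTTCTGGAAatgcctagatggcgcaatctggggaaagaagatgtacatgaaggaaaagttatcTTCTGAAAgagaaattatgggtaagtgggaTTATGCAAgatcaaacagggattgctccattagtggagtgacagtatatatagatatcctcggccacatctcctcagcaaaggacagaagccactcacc
Lcn2: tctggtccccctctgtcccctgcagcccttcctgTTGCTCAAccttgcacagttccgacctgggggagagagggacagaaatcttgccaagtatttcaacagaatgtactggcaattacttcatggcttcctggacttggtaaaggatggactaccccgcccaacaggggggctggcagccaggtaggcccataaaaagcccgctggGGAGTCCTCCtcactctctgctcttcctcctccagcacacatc

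Saa1 and Saa2 shared the C/EBP match TTGCACAA, which began 182 bases before the start in Saa1 and 183 in Saa2. The match to the kappaB consensus in Saa1, GGAGTTTTCC, overlapped a second C/EBP match and the Saa2 window held no kappaB match. Saa3 held 4 C/EBP matches and no kappaB match in these letters, and Lcn2 held 1 C/EBP match and 1 kappaB match. Of the members whose sequences are not printed, Saa4 and Hpx held 2 C/EBP matches each and no other match. Lrg1 held no match to any of these motifs, and Apcs held 1 STAT match only. Of 32851 mouse promoters of the same length, 36.8% held a C/EBP match, 9.55% a kappaB match and 7.02% a STAT match. Promoter sequences were available for 8 of the 10 members, and the set used here held none for Hp and Lbp. A match is a run of letters and not a shown binding site.

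No member passed the test between siOrm and siControl, and in 9 of the 10 the siOrm arrays both lay below the siControl arrays. Over all 10923 genes the adjusted test called 0% (limma, Benjamini-Hochberg adjusted p under 0.05), so the call of 0 members equals the background. At an unadjusted p under 0.05 there were 2 members, Saa2 and Lcn2, both lower in siOrm, against 4.76% of all genes at that level, 2.58% lower and 2.18% higher. Separation without overlap, with siOrm below, was found in 15.3% of all genes, and with siOrm above in 17%. The exception among the members was Lbp, whose groups overlapped. All 10 siOrm means were below the siControl means, as in 47.8% of all genes. The median difference, siOrm minus siControl, was -0.36 over the 10 members and 0.0084 over all genes. When 1 array was left out the members' median lay between -0.46 and -0.24, the value nearest 0 being that without siOrm replicate 1. Since the members were chosen with earlier results of these data known, these counts are descriptions.

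**Figure D1:**
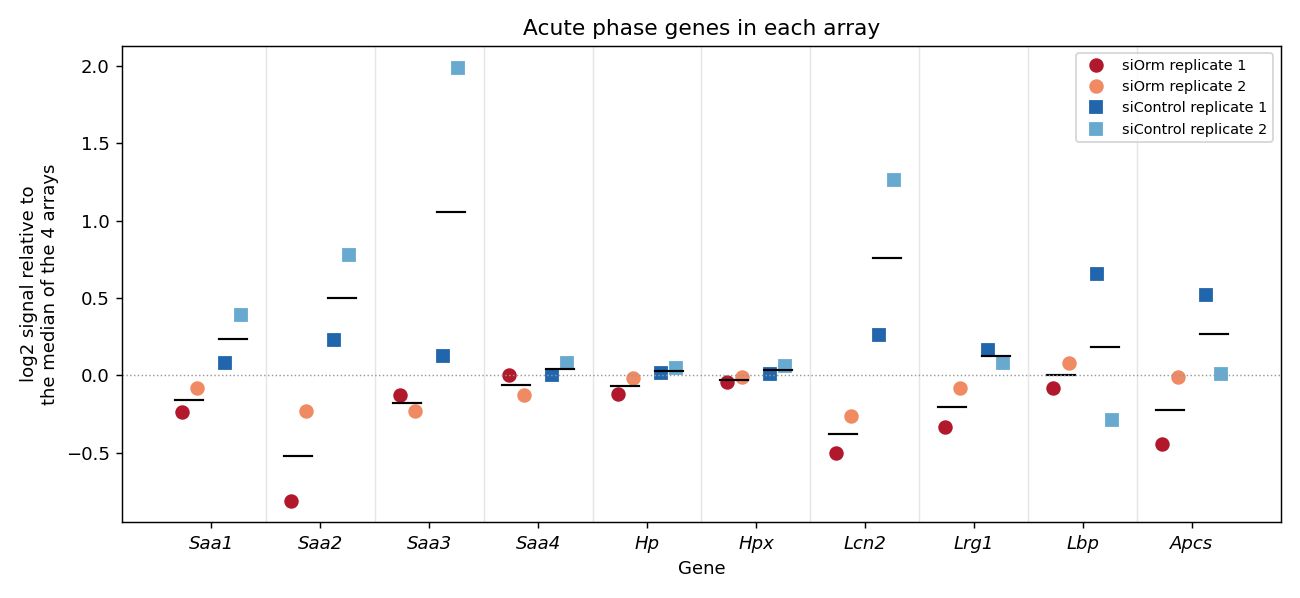
Each point is 1 array, with the log2 signal relative to the median of the 4 arrays on the vertical axis and the 10 genes along the horizontal axis; circles are siOrm, squares siControl and short bars the mean of each group's 2 arrays. The siControl replicate 2 values of Saa3 at 1.99 and Lcn2 at 1.26 stand above all other points, and Hp, Hpx and Saa4 stay within 0.13 of 0.

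Saa2, an inducible serum amyloid A gene of hepatocytes, stood at -0.81 and -0.23 in the siOrm arrays, against 0.23 and 0.77 in the siControl arrays. The groups did not overlap, and the difference exceeded the gap between the 2 arrays of either group, which was 0.58 in siOrm and 0.54 in siControl. The difference was -1.02 (SE 0.27, 95% interval from -1.69 to -0.36), a ratio of siOrm to siControl of 0.492. It did not pass over all genes (limma, unadjusted p = 0.00987, adjusted p = 0.994). By size it was the 62nd lowest of the 10923 differences. It kept its sign when any 1 array was left out, between -1.31 and -0.74.

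Saa1, its close copy, stood at -0.24 and -0.081 in siOrm, against 0.081 and 0.39 in siControl. The groups did not overlap, with 0.16 between the nearest arrays. The difference was -0.40 (SE 0.16, 95% interval from -0.80 to 0.0084; limma, adjusted p = 0.994), and -0.24 without siControl replicate 2. Saa1 was measured by 2 probe sets, and the platform's annotation gives one of these the transcript of Saa2 as its source. That probe set differed by -0.48, the probe set built on the Saa1 transcript by -0.31, and the probe set of Saa2, built on the same Saa2 transcript, by -1.02. With the shared probe set counted under Saa2, an alternative chosen after seeing the data, Saa1 differed by -0.31 and Saa2 by -0.75. The genes are so similar that their probe sets can take up each other's RNA, and the difference between the Saa1 and Saa2 values was not tested.

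Saa3, the serum amyloid gene also expressed by macrophages, stood at -0.13 and -0.23 in siOrm, against 0.13 and 1.99 in siControl. The high value belonged to siControl replicate 2 alone, 3.63 times siControl replicate 1 on the linear scale. The difference was -1.24 (SE 0.57, 95% interval from -2.66 to 0.18; limma, adjusted p = 0.994), smaller than the gap of 1.86 between the siControl arrays. Without siControl replicate 2 the difference was -0.31 (limma, adjusted p = 0.817). Without siControl replicate 1, where its group is siControl replicate 2 alone, it was -2.17 and passed the test (limma, adjusted p = 0.00481).

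Saa4, the constitutive member of the family, stood at 0.00052 and -0.13 in siOrm, against 0.0020 and 0.079 in siControl. The groups were separated by 0.0015 only, and the difference was -0.10 (SE 0.13, 95% interval from -0.43 to 0.23; limma, adjusted p = 0.999), and between -0.17 without siOrm replicate 1 and -0.040 without siOrm replicate 2. Its 2 probe sets gave 0.011 and -0.22, on opposite sides of 0. The interval of Saa4 does not reach the estimates of Saa2 or Saa3 but overlaps the intervals of both. No test between the genes was made.

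**Figure D2:**
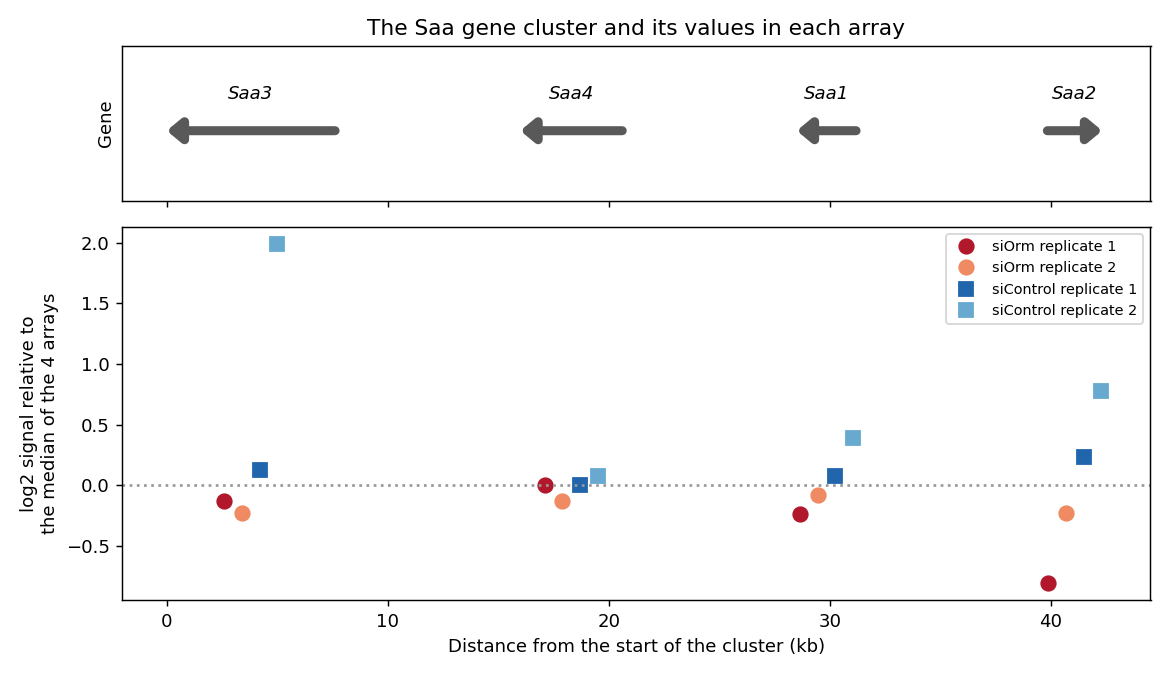
The upper panel draws the 4 Saa genes to scale against distance in kb from the start of the cluster, with arrows in the direction of transcription; the lower panel gives each gene's log2 signal relative to the median of the 4 arrays, circles for siOrm and squares for siControl. Saa2 spreads from -0.81 to 0.77 and Saa3 reaches 1.99 in siControl replicate 2, while Saa4 between them on the chromosome stays between -0.13 and 0.079.

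The coding genes around the cluster were looked at after these values had been seen. Of 6 coding genes within 100 kb of it, 4 were measured, and their differences lay between -0.20 and -0.010. In each of these the siOrm and siControl arrays overlapped. They were Sergef at -0.20, Saal1 at -0.010, Gtf2h1, a subunit of a general transcription factor, at -0.092, and Ldha, the muscle type lactate dehydrogenase subunit, at -0.12.

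Lcn2 encodes lipocalin 2, which binds bacterial siderophores and is made by hepatocytes and neutrophils. It stood at -0.50 and -0.26 in siOrm, against 0.26 and 1.26 in siControl. The groups did not overlap, with 0.52 between the nearest arrays, the widest such margin of the members. The difference was -1.14 (SE 0.33, 95% interval from -1.97 to -0.31), a ratio of siOrm to siControl of 0.453 (limma, unadjusted p = 0.0154, adjusted p = 0.994). The siControl arrays were 1.002 apart, and without siControl replicate 2 the difference was -0.64 (limma, adjusted p = 0.597). Without siControl replicate 1 it was -1.64 and passed the test (limma, adjusted p = 0.0166), with siControl replicate 2 alone for its group.

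Apcs, Lrg1 and Lbp had their highest value in siControl replicate 1, unlike the other 7 members, which were highest in siControl replicate 2. Over all genes 28.1% were highest in siControl replicate 2. Apcs encodes serum amyloid P, a pentraxin that is a major acute phase protein in mice. It stood at -0.44 and -0.0081 in siOrm, against 0.52 and 0.0081 in siControl. The groups did not overlap, but 0.016 separated siOrm replicate 2 from siControl replicate 2. The difference was -0.49 (SE 0.24, 95% interval from -1.08 to 0.098; limma, adjusted p = 0.994). It was -0.23 without siControl replicate 1, -0.27 without siOrm replicate 1 and -0.75 without siControl replicate 2.

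Lrg1, a secreted leucine-rich glycoprotein, stood at -0.33 and -0.083 in siOrm, against 0.17 and 0.083 in siControl. The groups did not overlap, and the siControl arrays were closer to each other than the siOrm arrays, with gaps of 0.25 in siOrm and 0.083 in siControl. The difference was -0.33 (SE 0.15, 95% interval from -0.70 to 0.033; limma, adjusted p = 0.994), and -0.21 without siOrm replicate 1. Lbp, which hands bacterial lipopolysaccharide to CD14, stood at -0.081 and 0.081 in siOrm, against 0.65 and -0.29 in siControl. Both siOrm arrays lay between the siControl arrays. Its difference of -0.18 (SE 0.31, 95% interval from -0.96 to 0.59; limma, adjusted p = 0.999) turned to 0.29 without siControl replicate 1 and was -0.65 without siControl replicate 2.

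The carriers of free hemoglobin and heme were the most even members. Hp, haptoglobin, binds hemoglobin that has left red cells, and stood at -0.12 and -0.014 in siOrm, against 0.014 and 0.049 in siControl. Hpx, hemopexin, binds free heme, and stood at -0.043 and -0.012 in siOrm, against 0.012 and 0.064 in siControl. In both genes the groups were separated, by 0.027 for Hp and 0.024 for Hpx. The difference was -0.098 for Hp (SE 0.13, 95% interval from -0.42 to 0.22; limma, adjusted p = 0.999), -0.15 without siOrm replicate 2 and -0.045 without siOrm replicate 1. For Hpx it was -0.066 (SE 0.13, 95% interval from -0.38 to 0.25; limma, adjusted p = 0.999), and -0.039 without siControl replicate 2. These intervals allow ratios of siOrm to siControl from 0.748 to 1.17 for Hp and from 0.769 to 1.19 for Hpx. Whether a bright probe set was near saturation cannot be seen in a centred table.

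**Figure D3:**
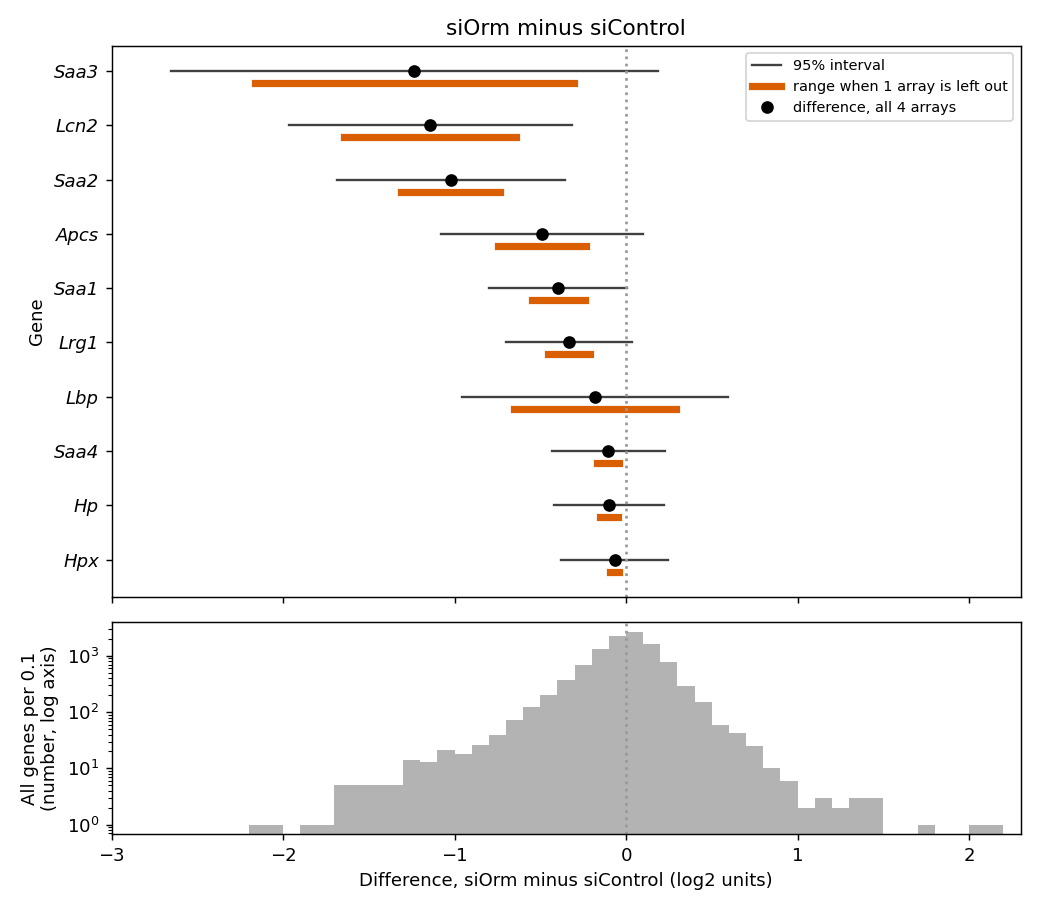
The upper panel gives siOrm minus siControl in log2 units for each gene, with its 95% interval as a thin line and the range over fits that leave out 1 array as a thick bar; the lower panel is the number of all 10923 genes per 0.1 on a log axis. The points run from -1.24 for Saa3 to -0.066 for Hpx, the intervals of Saa2 and Lcn2 leave out 0, and the bar of Lbp crosses 0.

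Among the members, the difference exceeded the gap within both groups in 5, which were Saa1, Saa2, Lcn2, Lrg1 and Hpx, against 20.3% of all genes. The array pattern was also shared in part: siOrm replicate 1 was the lowest array in 7 members, against 28.4% of all genes, and siControl replicate 2 was the highest in 7. Both held in 5 members, Saa1, Saa2, Hp, Hpx and Lcn2, against 13.8% of all genes. Over all genes, siControl replicate 2 stood apart from the other arrays. The SD over genes of its difference from siControl replicate 1 was 0.384, against 0.249 between the siOrm arrays, and 137 genes lay above 1 in it, against 0 to 12 in each other array. The gene that the siRNA targets, Orm1, stood at -0.24 and -0.015 in siOrm, against 0.015 and 0.19 in siControl, a difference of -0.23 (SE 0.15; limma, adjusted p = 0.994). The label of the siOrm arrays is checked only weakly by this value.

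Most measured macrophage and Kupffer cell markers were also highest in siControl replicate 2, as were 28.1% of all genes. Of the neutrophil markers, more were highest in siControl replicate 1. In bulk RNA, fewer cells of a type and less RNA per cell cannot be told apart. Of 13 neutrophil markers 12 were measured, with list means of -0.11 and -0.021 in siOrm, against 0.24 and 0.36 in siControl. Of these, 4 were highest in siControl replicate 2 and 6 in siControl replicate 1, 4 had a higher mean in siOrm, and the median difference was -0.069. The list medians were -0.047 and -0.013 in siOrm, against 0.10 and -0.014 in siControl, so the high mean of siControl replicate 2 rests on S100a8 and S100a9. S100a8, a subunit of the neutrophil protein calprotectin, stood at -0.60 and -0.16 in siOrm, against 0.16 and 2.75 in siControl. S100a9 stood at -0.10 and -0.14 in siOrm, against 0.10 and 1.95 in siControl. Cxcr2 and Prtn3, also among the 4 smallest p-values of the list, were highest in siControl replicate 1. Cxcr2 stood at -0.19 and -0.078 in siOrm, against 0.30 and 0.078 in siControl. Prtn3 stood at -0.70 and 0.17 in siOrm, against 1.72 and -0.17 in siControl. Of 12 macrophage and Kupffer cell markers 11 were measured, and 10 of these were highest in siControl replicate 2. Their list means were -0.027 and -0.037 in siOrm, against -0.26 and 0.71 in siControl. In 9 of the 11 the groups overlapped, and 4 of the 11 had a higher mean in siOrm. Of all 10923 genes, 7399 had overlapping groups and 5704 a higher mean in siOrm. Marco, a macrophage scavenger receptor, stood at -0.25 and -0.38 in siOrm, against 0.25 and 1.97 in siControl. It was the only measured macrophage marker with siOrm below siControl without overlap, while Adgre1 had siOrm above, and the 10 other than Marco were all below 0 in siControl replicate 1. Of 10 hepatocyte markers 8 were measured, with list means of 0.052 and 0.028 in siOrm, against 0.0024 and -0.069 in siControl. In the other lists the siControl replicate 2 mean was 0.32 for 7 endothelial, 0.37 for 7 stellate, 0.14 for 4 biliary, -0.19 for 7 T and B cell and -0.17 for 2 erythroid genes. The part of other cell types in the values of Saa3 and Lcn2 was not tested.

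**Figure D4:**
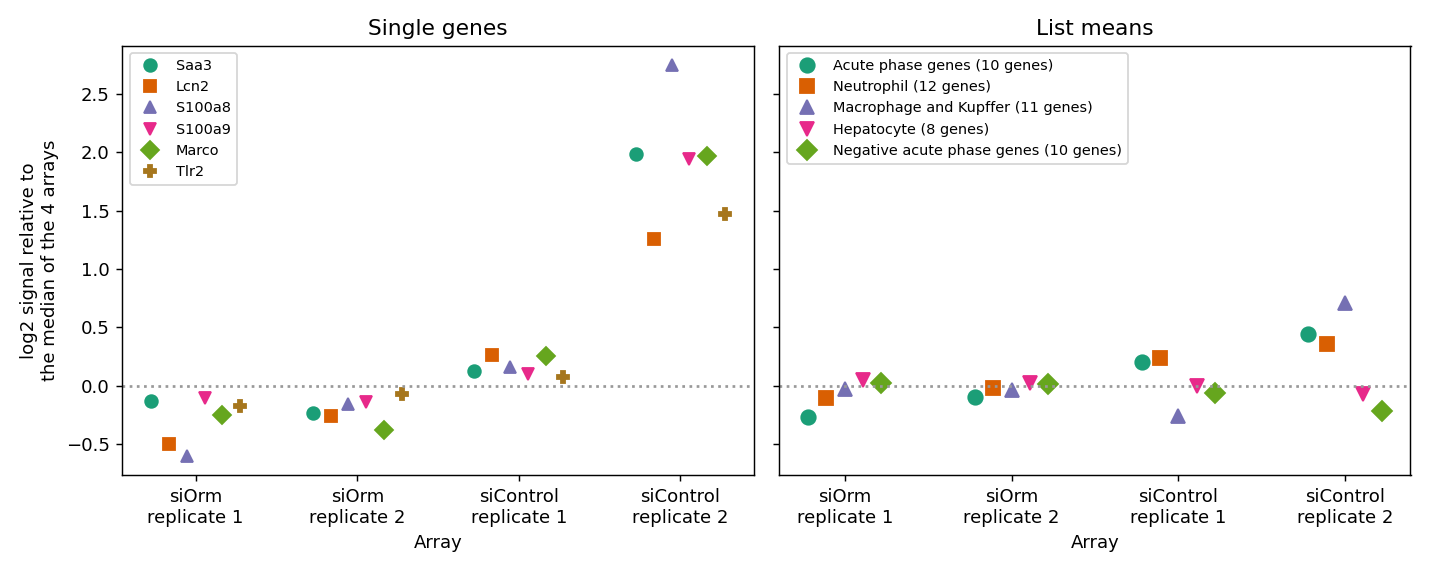
Points give the log2 signal relative to the median of the 4 arrays, by array along the horizontal axis; the left panel shows single genes and the right panel the mean over each list. In siControl replicate 2, Saa3 at 1.99, S100a9 at 1.95 and Marco at 1.97 lie close together, and in the other 3 arrays all 6 genes lie between -0.60 and 0.26. All 6 genes of the left panel were highest in siControl replicate 2. The left panel leaves out Cxcr2 and Prtn3, neutrophil markers that were highest in siControl replicate 1. Of the 11 measured macrophage markers it shows Marco alone, and Adgre1, left out, had siOrm above siControl.

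The genes most like the members were taken by the Euclidean distance over the 4 arrays, which is a description over 4 points that share the same libraries. Nearest to Saa3 were S100a9, the other calprotectin subunit, at a distance of 0.106, Marco at 0.233 and Oasl1, an interferon response gene, at 0.332. Nearest to Saa2 were Ube2c, a ubiquitin carrier of mitosis, at 0.128, Uhrf1, which maintains DNA methylation in S phase, at 0.161 and Tmed3 at 0.172. Nearest to Lcn2 were Prom1 at 0.146, the helicase subunit Mcm2 at 0.206 and Mvd, an enzyme of the mevalonate pathway, at 0.206. Nearest to the mean of the 10 members were Fam3c, Sfpq, Frzb, Zfr and Lysmd2, at 0.104 to 0.112. None of these 14 genes passed the test (limma, adjusted p = 0.994 each).

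The cytokines, receptors and factors that act on these genes were measured in 28 of 33 cases. In 12 of the 28 the siOrm arrays lay below the siControl arrays without overlap, in 1, Il6ra, above them, against 15.3% and 17% of all genes, and 0 passed the test (limma). The median difference was -0.20, against 0.0084 over all genes. Bcl3, a nuclear partner of NF-kappaB, stood at -0.63 and -0.44 in siOrm, against 0.63 and 0.44 in siControl. Its difference was -1.07 (SE 0.15; limma, adjusted p = 0.857). Osmr, the oncostatin M receptor subunit that pairs with gp130, stood at -0.55 and -0.38 in siOrm, against 0.46 and 0.40 in siControl. It differed by -0.90 (SE 0.14; limma, adjusted p = 0.857). Both had their siControl arrays closer together than Saa2, Saa3 or Lcn2 had. Cebpd, a C/EBP factor of the acute phase, differed by -0.38 and Nfkbiz, an atypical NF-kappaB inhibitor protein, by -0.63 (limma, adjusted p = 0.994 each). The gp130 gene Il6st differed by -0.22 and the interleukin 6 receptor gene Il6ra by 0.34.

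Other acute phase genes were measured in 23 of 29 cases, the orosomucoids included. The siOrm arrays lay below the siControl arrays without overlap in 8 and above them in 1, Agt, against 15.3% and 17% of all genes, and 0 passed the test (limma). Their median difference was -0.064, against -0.36 for the 10 members. Hamp, the iron hormone hepcidin, differed by -1.27 (SE 0.22), Steap4, a metalloreductase, by -0.98 (SE 0.21) and Il1rn, which encodes the antagonist of the interleukin 1 receptor, by -0.54 (SE 0.14). Orm2 stood at -0.94 and -0.16 in siOrm, against 0.16 and 0.90 in siControl, an order of arrays like that of Saa2. In this list 14 of the 23 genes were highest in siControl replicate 1 and 7 in siControl replicate 2. Over all genes 28.1% were highest in siControl replicate 2, and the share for siControl replicate 1 was not taken.

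Genes listed as negative acute phase genes, most of them for plasma proteins that the liver makes less of in the acute phase, were measured in 10 of 11 cases. In 4 of these, Alb, Ttr, Rbp4 and Apoa2, the siOrm arrays lay above the siControl arrays without overlap, against 17% of all genes, in 0 below, and 0 passed the test (limma). The median difference was 0.093, and the differences of those 4 ran from 0.058 for Alb to 0.14 for Rbp4. Serpina6, the corticosteroid carrier, differed by 0.69 (SE 0.54) and rested on siControl replicate 2 at -1.56, with overlapping groups. Tfr2, a membrane receptor for transferrin, differed by 0.20 and Apoa4 by 0.45.

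Receptors and partners of the members' proteins were measured in 19 of 20 cases. The siOrm arrays lay below the siControl arrays without overlap in 2, Hmox1 and Tlr2, and above them in 1, Lrp2, against 15.3% and 17% of all genes, and 0 passed the test (limma). Hmox1, the heme oxygenase that degrades heme taken up with hemopexin, differed by -0.38 (SE 0.17). Tlr2, a receptor that serum amyloid A can engage, stood at -0.17 and -0.072 in siOrm, against 0.072 and 1.48 in siControl. Cd163, the haptoglobin-hemoglobin receptor of macrophages, stood at 0.091 and -0.77 in siOrm, against -0.091 and 0.99 in siControl, with overlapping groups. Cd36 differed by 0.71, also with overlapping groups. The median difference of the list was 0.030.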

How the data were processed

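Expression was measured on 4 single-colour arrays, 2 of siOrm livers and 2 of siControl livers; groups and replicate numbers come from the labels. The series text names an Affymetrix mouse array. The authors deposited log2 signals, here taken as base 2, centred per probe set on the median of the 4 arrays (no row median was further than 4.8e-07 from 0). How arrays were normalized and probe sets filtered, and with which software, was not given in the sources used here. The number of arrays limits the precision, and dim or saturated probe sets cannot be seen.

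Gene names are those of the platform's annotation, in which 17209 probe sets had 1 gene symbol, 564 several and 1044 none, and 35 were controls. A gene's value was the mean of its probe sets. Gene numbers matched the GRCm38.p6 gene table for 10907 of 10923 genes. Differences are siOrm minus siControl, tested with limma 3.58.1 under R 4.3.3 (two-sided, constant variance prior of 3.6 degrees of freedom beside 2 residual ones) and Benjamini-Hochberg adjustment over all genes at 0.05, and checked on simulated data. An exact permutation of 2 against 2 arrays cannot go below p = 0.333. Figures were drawn with matplotlib 3.10.9 and promoters aligned globally with Biopython 1.88.

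The members, gene lists and tests were chosen with earlier results of these data known. The text names all members, up to 4 genes of each accompanying list with the smallest p-values, and the genes nearest to the mean of the members (5) and to the 3 members with the largest differences (3 each). Genes outside that rule, such as Orm1, Il6st, Il6ra, Agt, Lrp2 and the neighbours of the Saa cluster, were named after their values were seen. Alternatives covered the variance prior, robust estimation, normalization, centring, probe set choice, the replicate block and each array left out.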

Additional observations from a re-analysis of the deposited data

How the results depend on the processing

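Across the alternatives for the 10 members, 114 of 117 differences kept their sign and their side of the threshold. Much of this count was fixed in advance. The variance prior, robust estimation and the replicate block cannot move a difference in this balanced design. Nor can the median of probe sets, as each member had 1 or 2. No member was near the threshold in the main fit (limma, smallest adjusted p = 0.994). The exceptions all came from leaving out siControl replicate 1, which sets siControl replicate 2 alone, with the spread of the siOrm arrays, against siOrm: Saa3 at -2.17 and Lcn2 at -1.64 passed (limma, adjusted p = 0.00481 and 0.0166), and Lbp turned to 0.29 (limma, adjusted p = 0.429), within a range of -0.65 to 0.29 over the arrays left out. Over all genes the count past the threshold was 0 by the constant prior, with 520 at an unadjusted p under 0.05. It was 11 with a trend in the variance prior, none of them a member, and 229 without siControl replicate 1, so that leaving out 1 array gave 0 to 229. Quantile normalization made the differences of Saa3, Lcn2 and Saa2 smaller, at -0.84, -0.91 and -0.88. It made those of Apcs and Lbp larger, at -0.58 and -0.36. Members with siOrm below siControl without overlap numbered 8 after quantile normalization or with array medians subtracted. They numbered 6 of the 7 members left without probe sets of the suffixes _s_at, _x_at and _a_at. That setting drops Saa2, Saa3 and Lcn2, the 3 members with the largest differences, and the median of the other 7 was -0.18. Saa2 was dropped for the suffix _x_at, and Saa3 and Lcn2 for _a_at. With a replicate block, the difference of Saa2 is -1.02 by construction, its adjusted p was 0.465 (limma) and the count past the threshold was 0. The replicate numbers are not stated to pair arrays; over genes, the replicate 1 minus replicate 2 differences of the 2 groups correlated at 0.132. No limit on dim probe sets could be set in a centred table.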
